A study of Mus musculus with 20 samples.

Results

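Proteoglycans are core proteins that carry long sulphated sugar chains, and 10 of their genes are described here among the 35240 gene symbols of a colonoid RNA-seq series. They were taken by symbol, namely the small leucine-rich proteoglycans Dcn, Lum, Bgn, Fmod, Ogn, Prelp and Aspn, the large matrix proteoglycans Vcan and Hspg2, and the cell-surface proteoglycan Sdc1. The set was selected on expression values in these same 20 libraries, with the differences between genotypes and days already known, so every difference of a member given below is a description and supports nothing. A mean of at least 1 over all libraries, the minimum for the fits across genes, was reached by 7 of the 10 (Dcn, Lum, Bgn, Prelp, Vcan, Hspg2 and Sdc1) and by 13539 genes in all. Fmod, Ogn and Aspn were below it.

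Colonoids, which are gel-embedded cultures grown from colon crypts, came from WT mice (C57BL/6) and from Tnfr2-/- mice, which lack TNFR2, the receptor encoded by Tnfrsf1b, in every cell of the body. Donor mice were 8 weeks old and of either sex. Crypts of both genotypes were embedded in Matrigel under IntestiCult medium, passaged 5 times, filtered and reseeded, and RNA was taken on days 1, 2, 3, 5 and 7 post-passage. There were 20 libraries from 2 mice per genotype, 1 library per mouse and day, so that 10 WT libraries stood against 10 Tnfr2-/- libraries. The replicate number in the sample titles was read as naming the mouse. The 5 libraries of a mouse are repeats of that animal. Values are size-factor-normalised TPM (a transcript's share of all transcripts, scaled by length) summed per gene, called normalised expression. Levels may be compared between genes, but the values keep no read depth and no counting error can be given. The library sums lay between 899764 and 1110233, and between 13007 and 13469 genes per library reached a value of 1. Tnfrsf1b itself was at 15.3 ± 3.09 (SD, n = 10 libraries) in WT and 5.80 ± 2.84 (SD, n = 10) in Tnfr2-/- cultures, with no library at 0 and with ranges of 11.1 to 21.9 and 2.71 to 11.5 that overlapped.

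The small leucine-rich proteoglycans are secreted proteins that bind collagen and set how its fibrils pack, and decorin and biglycan also bind growth factors such as TGF-beta. Versican is a large chondroitin sulphate proteoglycan that binds hyaluronan in loose, provisional matrix. Perlecan, the product of Hspg2, is a heparan sulphate proteoglycan of basement membranes, and syndecan-1 is a transmembrane heparan sulphate proteoglycan of epithelial cells. In the gut wall the small leucine-rich members are typically made by fibroblasts, and syndecan-1 by the epithelium.

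Promoter windows are shown for 4 genes of contrasting direction, namely Bgn, Hspg2 and Sdc1, which were higher on average in Tnfr2-/- cultures, and Prelp, which was lower. Of the 10 genes, 8 had a window in the RefSeq promoter table (GRCm38.p6), which runs from 250 bases before to 50 bases after the annotated start, and Dcn and Lum were not among them. Capitals mark the GC box (GGGCGG), the TATA box (TATAAA), the AP-1 site (TGANTCA), the TEAD site (GGAATG) and the NF-kappaB consensus, searched on both strands. The windows lie at chrX:73483351-73483650 (plus strand), chr4:137468553-137468852 (plus strand), chr12:8771146-8771445 (plus strand) and chr1:133921352-133921651 (minus strand), and are printed 5′ to 3′ along the gene.
Bgn: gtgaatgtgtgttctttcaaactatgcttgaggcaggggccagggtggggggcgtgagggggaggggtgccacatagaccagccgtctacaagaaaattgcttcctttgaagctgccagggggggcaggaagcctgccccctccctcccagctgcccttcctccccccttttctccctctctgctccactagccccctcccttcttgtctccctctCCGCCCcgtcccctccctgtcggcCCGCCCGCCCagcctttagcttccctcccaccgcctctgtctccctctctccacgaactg
Hspg2: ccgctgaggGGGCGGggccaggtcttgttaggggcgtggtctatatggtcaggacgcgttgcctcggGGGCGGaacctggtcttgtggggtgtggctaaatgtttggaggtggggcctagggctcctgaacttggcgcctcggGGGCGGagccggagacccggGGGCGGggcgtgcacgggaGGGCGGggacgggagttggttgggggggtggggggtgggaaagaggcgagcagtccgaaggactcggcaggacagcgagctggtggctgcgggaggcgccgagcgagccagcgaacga
Sdc1: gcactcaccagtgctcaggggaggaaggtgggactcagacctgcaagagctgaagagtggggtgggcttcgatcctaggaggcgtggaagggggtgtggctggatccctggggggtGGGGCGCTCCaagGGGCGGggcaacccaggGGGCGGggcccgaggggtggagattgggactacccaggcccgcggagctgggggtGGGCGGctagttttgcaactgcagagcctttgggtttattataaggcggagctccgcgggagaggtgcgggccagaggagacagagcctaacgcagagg
Prelp: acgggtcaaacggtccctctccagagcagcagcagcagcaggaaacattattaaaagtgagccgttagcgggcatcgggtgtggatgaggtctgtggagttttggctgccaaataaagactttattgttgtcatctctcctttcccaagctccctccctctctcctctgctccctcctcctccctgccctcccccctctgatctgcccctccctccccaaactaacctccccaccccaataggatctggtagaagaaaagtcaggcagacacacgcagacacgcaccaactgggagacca
The GC box occurred 5 times in the Hspg2 window, 3 times in the Sdc1 window and 3 times in the Bgn window, where 2 of the matches overlapped by 2 bases. It was found in 4 of the 8 members' windows and in 35.7% of all 32851 windows of that length. The NF-kappaB consensus matched once, in the Sdc1 window, against 8.46% of all windows, and the Prelp window held none of the 5 motifs. GC content was 63.7% for Bgn, 70.3% for Hspg2, 66.3% for Sdc1 and 55.3% for Prelp, where all windows had a median of 52.7% and an upper quartile of 61.7%. These matches describe letters in a window, and binding was not measured.

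The 10 genes spanned a wide range of levels. Dcn had the highest mean over the 20 libraries at 936 ± 643 (SD, n = 20), place 164 among the 13539 genes. Bgn at 704 ± 375 and Sdc1 at 558 ± 168 came next. Vcan followed at 98.1 ± 39.8, Lum at 76.0 ± 25.1, Hspg2 at 27.6 ± 14.2 and Prelp at 8.92 ± 10.2. This order was not the same in each genotype. Dcn exceeded Bgn in 10 of 10 Tnfr2-/- libraries but in 4 of 10 WT libraries, and Hspg2 exceeded Prelp in 10 of 10 Tnfr2-/- but 5 of 10 WT libraries. Bgn and Sdc1 did not differ beyond their spread (Bgn was the higher in 14 of 20 libraries), nor did Vcan and Lum (13 of 20). Sdc1 was above Vcan, and Lum above Hspg2, in all 20 libraries.

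**Figure D1:**
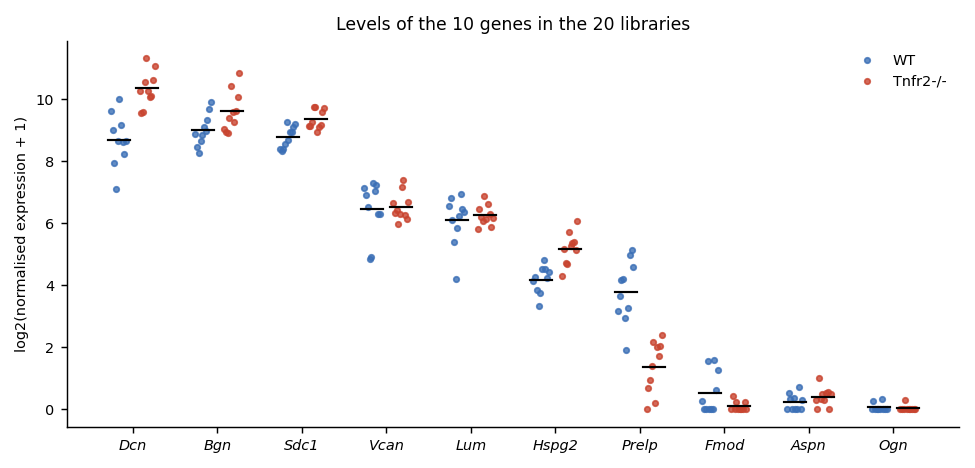
Normalised expression of the 10 genes on a log2(value + 1) scale, 1 point per library (10 WT in blue, 10 Tnfr2-/- in red), with black bars at the mean of the log2 values. In WT, Dcn lies between 135 and 1026, and Fmod, Aspn and Ogn stay close to 0.

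Decorin, a small leucine-rich proteoglycan that decorates collagen fibrils, was lower at late than at early days in WT and higher at late than at early days in Tnfr2-/- cultures. In WT mouse 1, Dcn was at 787, 512, 244, 135 and 402 on days 1, 2, 3, 5 and 7, and in WT mouse 2 at 1026, 567.9, 388, 297 and 400. In Tnfr2-/- mouse 1 it was at 1231, 756, 774, 1493 and 2551, and in Tnfr2-/- mouse 2 at 1240, 1068, 1105, 1573 and 2164. Both Tnfr2-/- libraries stood above both WT libraries on each of the 5 days, and the gap widened from 1.36-fold on day 1 and 1.69-fold on day 2 to 7.08-fold on day 5 and 5.88-fold on day 7. Over all days the genotypes overlapped, because WT mouse 2 on day 1 reached 1026, above the lowest Tnfr2-/- libraries.

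Late cultures (days 5 and 7) showed the largest Dcn difference. The mean was 309 ± 125 (SD, n = 4 libraries) in WT and 1945 ± 503 (SD, n = 4) in Tnfr2-/- cultures, ranges of 135 to 402 and 1493 to 2551 that did not overlap. The log2 difference was 2.74 ± 0.22 (SE) at late days, 0.93 ± 0.18 at early days (1, 2 and 3) and 1.65 ± 0.26 over all days. Within a genotype, Dcn fell by 0.90 ± 0.20 (SE) from early to late days in WT and rose by 0.91 ± 0.20 in Tnfr2-/- cultures on the log2 scale. Per mouse, the late mean was 0.522 and 0.528 times the early mean in the WT mice, and 2.20 and 1.64 times in the Tnfr2-/- mice. The late difference exceeded the early one by 1.81 ± 0.29 (SE). The early call was lost without any 1 of 7 libraries (WT mouse 1 on day 1, 2 or 3, Tnfr2-/- mouse 1 on day 1, and Tnfr2-/- mouse 2 on day 1, 2 or 3), with log2 differences then of 0.81 to 0.93. The late-minus-early call was lost without any 1 of 14 libraries, all except WT mouse 1 on days 3, 5 and 7, WT mouse 2 on day 5 and Tnfr2-/- mouse 2 on days 2 and 3. Over all 20 omissions the difference stayed between 1.53 and 2.09.

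**Figure D2:**
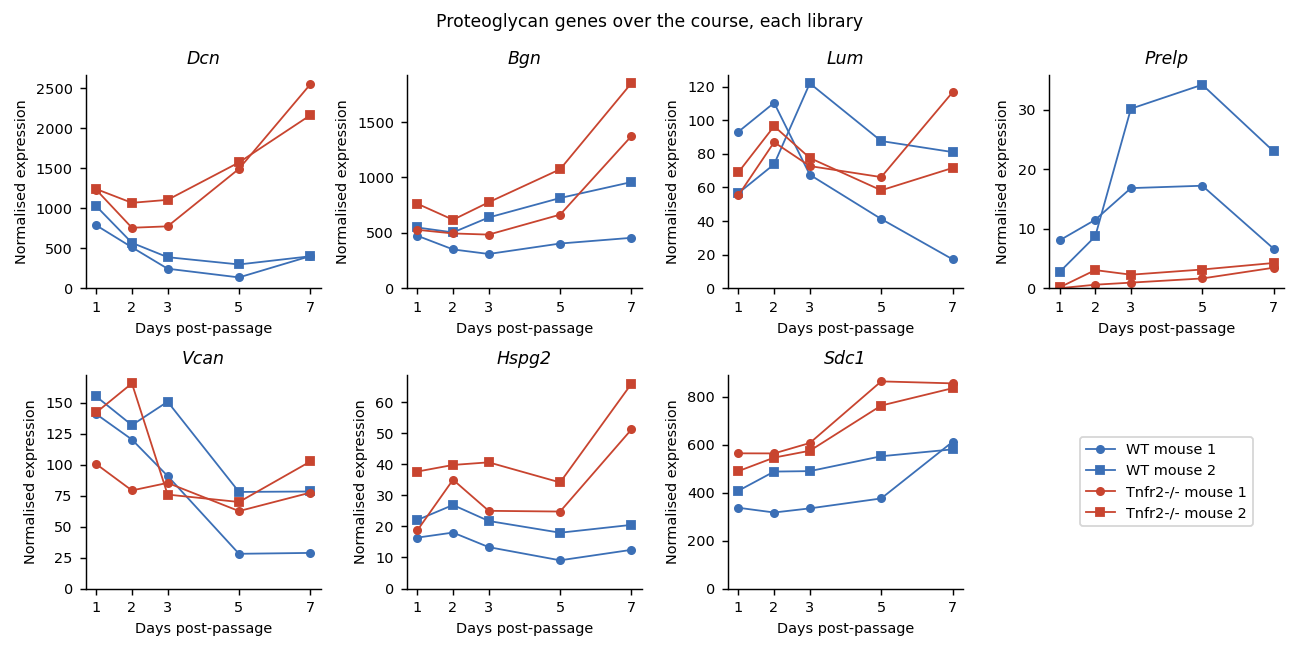
Normalised expression of the 7 genes above the minimum against days post-passage, 1 line per mouse (WT blue, Tnfr2-/- red; circles mouse 1, squares mouse 2). Dcn is lowest on day 5 in both WT mice (135 and 297), and on day 7 it is at 402 and 400 in the WT mice and at 2551 and 2164 in the Tnfr2-/- mice, and Prelp is lower in both Tnfr2-/- mice on every day.

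Biglycan, the closest relative of decorin, also rose over the course in Tnfr2-/- cultures but, unlike decorin, was not lower at late days in WT. In WT mouse 1, Bgn was at 474, 350, 309, 404 and 455 on the 5 days, and in WT mouse 2 at 548, 504, 639, 814 and 959. In Tnfr2-/- mouse 1 it was at 527, 495, 484, 664 and 1374, and in Tnfr2-/- mouse 2 at 763, 618, 776, 1074 and 1852. Only on day 7 did both Tnfr2-/- libraries exceed both WT libraries, by 2.28-fold in the means, and the genotypes overlapped in late days as in early ones. Bgn rose by 0.95 ± 0.29 (SE, log2) from early to late days in Tnfr2-/- cultures, 2.03-fold in each mouse, and the corresponding WT difference of 0.43 ± 0.29 was not called. The Tnfr2-/- call was lost without any 1 of 6 libraries (Tnfr2-/- mouse 1 on day 1, 2, 3 or 7, or mouse 2 on day 5 or 7), with differences of 0.78 to 1.06. The genotype difference of 0.91 ± 0.31 at late days and 0.60 ± 0.19 over all days was not called either, and became so without WT mouse 2 on day 5 (1.17 and 0.68) or, over all days, without the same mouse on day 3 (0.68).

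Lumican, a keratan sulphate member that also binds collagen, lies 46984 bases from Dcn on chromosome 10 (Dcn at chr10:97479609-97518143 and Lum at chr10:97565128-97572703, GRCm38, both on the plus strand) with no annotated gene between them. Its course was unlike that of its neighbour. WT mouse 1 stood at 93.1, 110, 67.5, 41.2 and 17.2 on the 5 days and WT mouse 2 at 56.6, 73.8, 122, 87.6 and 81.0. Tnfr2-/- mouse 1 stood at 55.3, 86.9, 72.7, 66.1 and 117 and Tnfr2-/- mouse 2 at 69.0, 96.4, 77.5, 58.3 and 71.6. On no day did both libraries of a genotype stand clear of the other, and Lum was called in no comparison. The WT mice themselves diverged, with a late mean 0.323 times the early mean in mouse 1 and 1.00 times in mouse 2. Without WT mouse 2 on day 7, Lum was called higher in Tnfr2-/- cultures at late days (1.19) and lower at late than early days in WT (-1.35). Across the 20 libraries of 4 mice, Dcn and Lum correlated at a Pearson r of 0.23 on the log2 scale, against 0.83 for Dcn and Hspg2, values that describe libraries sharing animals and days.

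Prelp, a basic leucine-rich proteoglycan that tethers basement membrane to collagen, was the only 1 of the 7 tested genes called lower in Tnfr2-/- cultures. Prelp stood in WT mouse 1 at 8.03, 11.5, 16.8, 17.2 and 6.63 on the 5 days, and in WT mouse 2 at 2.72, 8.70, 30.1, 34.2 and 23.0. In Tnfr2-/- mouse 1 it was at 0, 0.593, 0.941, 1.64 and 3.44, and in Tnfr2-/- mouse 2 at 0.140, 3.05, 2.27, 3.15 and 4.24. Each WT library exceeded the Tnfr2-/- libraries of its day throughout the course, although over all days the ranges met, since WT mouse 2 was at 2.72 on day 1. Mean levels were 12.98 ± 9.59 (SD, n = 6) in WT and 1.17 ± 1.23 (SD, n = 6) in Tnfr2-/- cultures at early days, and 20.2 ± 11.5 (SD, n = 4) and 3.12 ± 1.09 (SD, n = 4) at late days. On the log2(value + 1) scale, which understates changes of so low a gene, the difference was -2.44 ± 0.28 (SE) over all days, -2.59 ± 0.35 at early and -2.21 ± 0.43 at late days, and the call in each of the 3 held without any single library. Its neighbour Fmod, 115.8 kb away on chromosome 1, was at 0 in 5 of 10 WT and 7 of 10 Tnfr2-/- libraries, with highest values of 2.02 and 0.347.

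Asporin and osteoglycin (mimecan), which sit 40.5 kb apart on chromosome 13, were close to absent from the table. Aspn reached 0.636 in WT and 1.02 in Tnfr2-/- cultures and was at 0 in 7 of 20 libraries. Ogn reached 0.262 and 0.217 and was at 0 in 17 of 20 libraries. Values this low rest on few reads, and no genotype difference was read from them.

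Versican was lower at late than at early days in WT cultures. In WT mouse 1, Vcan was at 141, 120, 90.8, 28.0 and 28.7 on the 5 days, and in WT mouse 2 at 155, 132, 151, 77.9 and 78.3. In Tnfr2-/- mouse 1 it was at 100, 79.1, 85.2, 62.5 and 77.4, and in Tnfr2-/- mouse 2 at 142, 166, 75.8, 69.8 and 102. All 4 late WT libraries lay below all 6 early ones, whereas in Tnfr2-/- cultures the late range of 62.5 to 102 overlapped the early range of 75.8 to 166. Vcan fell by 1.44 ± 0.32 (SE, log2) from early to late days in WT, a call lost without WT mouse 1, and the value of -0.42 ± 0.32 in Tnfr2-/- cultures was not called, nor was the difference between these courses (1.01 ± 0.45). Genotype differences of Vcan were 0.08 ± 0.23 over all days, -0.33 ± 0.28 at early and 0.69 ± 0.35 at late days, none of them called.

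Perlecan was higher in Tnfr2-/- cultures. Hspg2 lay in WT mouse 1 at 16.4, 18.0, 13.3, 9.09 and 12.5 on the 5 days, and in WT mouse 2 at 22.1, 26.9, 21.8, 18.0 and 20.5. In Tnfr2-/- mouse 1 it was at 18.7, 35.0, 25.03, 24.8 and 51.3, and in Tnfr2-/- mouse 2 at 37.7, 39.8, 40.6, 34.2 and 66.0. Both Tnfr2-/- libraries exceeded both WT libraries on 4 of 5 days, day 1 being the exception, and in late cultures the ranges of 9.09 to 20.5 and 24.8 to 66.0 did not overlap. The difference was 1.00 ± 0.19 (SE, log2) over all days and 1.46 ± 0.28 at late days, and 0.69 ± 0.23 at early days was not called. The late call was lost without WT mouse 1 on day 5 (1.23). Hspg2 (chr4:137468769-137570630) and the targeted Tnfrsf1b (chr4:145213463-145246870) lie 7.64 Mb apart on the same chromosome (GRCm38), with 220 annotated genes between them.

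Syndecan-1, the epithelial surface proteoglycan, was higher in Tnfr2-/- cultures by a smaller margin and with less spread. Sdc1 was at 337, 318, 335, 376 and 613 on the 5 days in WT mouse 1 and at 408, 488, 490, 552 and 581 in WT mouse 2. In Tnfr2-/- mouse 1 it was at 565, 564, 608, 865 and 857, and in Tnfr2-/- mouse 2 at 490, 547, 575, 764 and 837. Both Tnfr2-/- libraries exceeded both WT libraries on each of the 5 days, by 1.38-fold to 1.75-fold in the means, and the late ranges of 376 to 613 and 764 to 865 did not overlap. At early days the ranges of 318 to 490 and 490 to 608 were also apart, by less than 1 unit. The difference was 0.58 ± 0.09 (SE, log2) over all days and 0.67 ± 0.16 at late days, and 0.51 ± 0.13 at early days was not called. The late call was lost without any 1 of 7 of the 8 late libraries, all but WT mouse 2 on day 5, and the difference then lay between 0.53 and 0.71. Sdc1 rose by 0.57 ± 0.14 from early to late days in Tnfr2-/- cultures, a call lost without Tnfr2-/- mouse 1 on day 5 (0.53). The WT value of 0.42 ± 0.14 was not called, but became so when libraries of a mouse were treated as correlated.

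**Figure D3:**
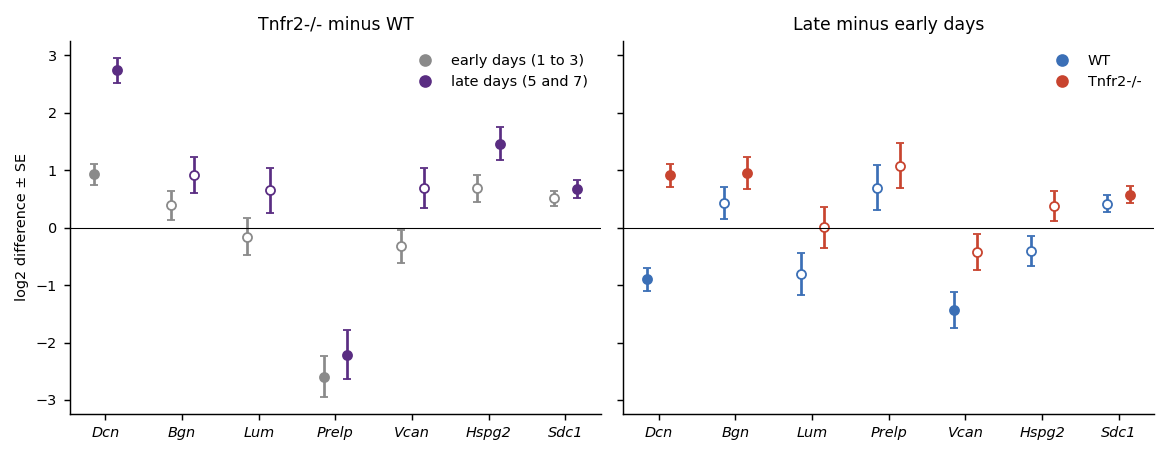
Differences on the log2(value + 1) scale with SE bars for the 7 genes, Tnfr2-/- minus WT at early and late days on the left and late minus early days in each genotype on the right; filled points were called across all genes and open points were not. Dcn lies at 0.93 and 2.74 on the left and at -0.90 and 0.91 on the right, and Prelp is the gene below -2.

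Counted together, 4 of the 7 genes were called for genotype over all days (Dcn, Hspg2 and Sdc1 higher, Prelp lower), where 7.6% of all 13539 genes were called. At late days the same 4 genes were called against 6.45% of all genes, at early days Dcn and Prelp against 1.2%, and for the late-minus-early difference Dcn alone against 0.148%. For late against early days, 2 of 7 were called in WT (Dcn and Vcan, both lower) against 20.1% of all genes, and 3 of 7 in Tnfr2-/- cultures (Dcn, Bgn and Sdc1, all higher) against 20.3%. Libraries of the genotypes did not overlap for 4 of the 7 genes at late days (11.4% of all genes), for Sdc1 at early days (1.28%) and for 0 of 7 over all days (0.229%). Because the genes were picked knowing these values, nothing is read from the shares. All comparisons of genotype rest on 2 mice against 2. With the libraries of a mouse averaged, limma called 0 of the 7 genes for genotype over all days, late days and early days, with 4, 4 and 3 at an unadjusted p under 0.05, and it called 7, 0 and 3 of all genes. When libraries of a mouse were instead treated as correlated, 4, 4 and 2 of the 7 were called. Over all days that fit called 545 of all genes, where 1029 had been called without the block. Single mice decided several calls. At late days all 7 genes were called without WT mouse 2, 3 without WT mouse 1 (Dcn, Prelp and Sdc1), and Dcn alone without either Tnfr2-/- mouse. At early days 3 were called without WT mouse 2 (Dcn, Prelp and Sdc1), 1 without WT mouse 1 (Prelp), and 0 without either Tnfr2-/- mouse (limma; 3 at an unadjusted p under 0.05 in each case). Over all days Dcn and Prelp were called without any 1 mouse, Hspg2 was lost without WT mouse 1 or Tnfr2-/- mouse 2, and Sdc1 without Tnfr2-/- mouse 1. For the late-minus-early difference, Dcn was called without either WT mouse and not without Tnfr2-/- mouse 1 (1.60) or mouse 2 (2.02). In the courses, 0 of the 7 were called in either genotype without either Tnfr2-/- mouse (limma; 2 in WT and at most 1 in Tnfr2-/- cultures at an unadjusted p under 0.05). Such fits leave 1 library per day in a genotype and assume that it varies like the others. Over all days the number of all genes called moved in these fits too, rising without WT mouse 2 and falling without each other mouse. The counts are therefore not read as a result on the 7 genes.

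The sum of the 10 genes was 1707 in early and 1643 in late WT libraries, and 2416 and 4221 in Tnfr2-/- libraries. Dcn made up 33.2% of that sum in early WT, 18.5% in late WT, 42.2% in early Tnfr2-/- and 46.0% in late Tnfr2-/- libraries (means of 6, 4, 6 and 4 libraries). Late ranges were 13.4% to 26.2% in WT and 42.5% to 50.7% in Tnfr2-/- cultures.

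Markers of other cell types varied beside these genes. The 10 fibroblast markers, which include Col1a1, Col3a1, Pdgfra and Vim, were all above the minimum and summed to 2289 to 5065 in early WT, 1496 to 5681 in late WT, 3184 to 4563 in early Tnfr2-/- and 3439 to 8869 in late Tnfr2-/- libraries. Of them, 2 were called higher in Tnfr2-/- cultures over all days (Thy1 and Vim) and 1 at late days (Vim). The 7 epithelial markers, among them Epcam, Krt8 and Krt19, summed to 11330 to 19610 over all libraries. Epcam (0.36, adjusted p = 0.0335, limma) and Cdh1 (0.25, adjusted p = 0.0221, limma) were called higher in Tnfr2-/- cultures over all days. Over the WT course, 3 of the 7 were called higher (Epcam at 1.33, Cdh1 and Vil1) and none lower, against 20.1% of all genes. Over the Tnfr2-/- course, 2 were called higher (Epcam at 1.57 and Cdh1) and 2 lower (Krt8 at -0.43 and Krt19 at -0.31), against 20.3%. Endothelial, glial and mesothelial markers summed to at most 4.24, 2.57 and 2.97. Among leukocyte markers, Ptprc was at most 0.753, Adgre1 was at 0 in 19 of 20 libraries and Cd3e in 16. Cd68, a macrophage and lysosome gene, was at 7.12 to 42.5 and was called higher in Tnfr2-/- cultures by 1.14 (log2; adjusted p = 0.000449, limma). The 6 smooth muscle and myofibroblast markers summed to 15.3 to 269. In such bulk RNA, fewer cells of a type and less RNA per cell cannot be told apart.

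Relative to the summed fibroblast markers of the same library, Dcn was at 10.5% ± 6.09 (SD, n = 4) in late WT and 33.1% ± 7.89 (SD, n = 4) in late Tnfr2-/- libraries, with ranges of 6.44% to 19.5% and 24.4% to 43.4% that stayed apart. Hspg2 likewise stayed apart (0.361% to 0.608% and 0.673% to 0.744%), as did Prelp in the other direction (0.321% to 1.15% and 0.0452% to 0.0621%). Bgn did not, at 16.9% to 27.0% in late WT and 18.0% to 21.2% in late Tnfr2-/- libraries. In the fits made relative to these markers, an alternative added after the data were seen, Dcn and Prelp kept their genotype calls over all days and at late days, and Hspg2 and Sdc1 lost theirs. The late difference of Dcn was then 1.77, where it had been 2.74, and that of Hspg2 was 0.49. Dcn lost its early call at a difference of 0.93, as large as before, its late-minus-early call at 0.84, and its course calls at -0.53 in WT and 0.31 in Tnfr2-/- cultures. No member was called in either course. Vcan lost its WT course call at -1.06, although its share of the marker sum stayed apart, at 2.60% to 3.97% in early and 1.38% to 1.87% in late WT libraries. Sdc1 was then -0.30 at late days, where it had been 0.67. Relative to the summed epithelial markers, Sdc1 was at 2.44% to 4.08% in late WT and 4.21% to 6.75% in late Tnfr2-/- libraries. The part of cell composition in these differences was not tested beyond these ratios.

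**Figure D4:**
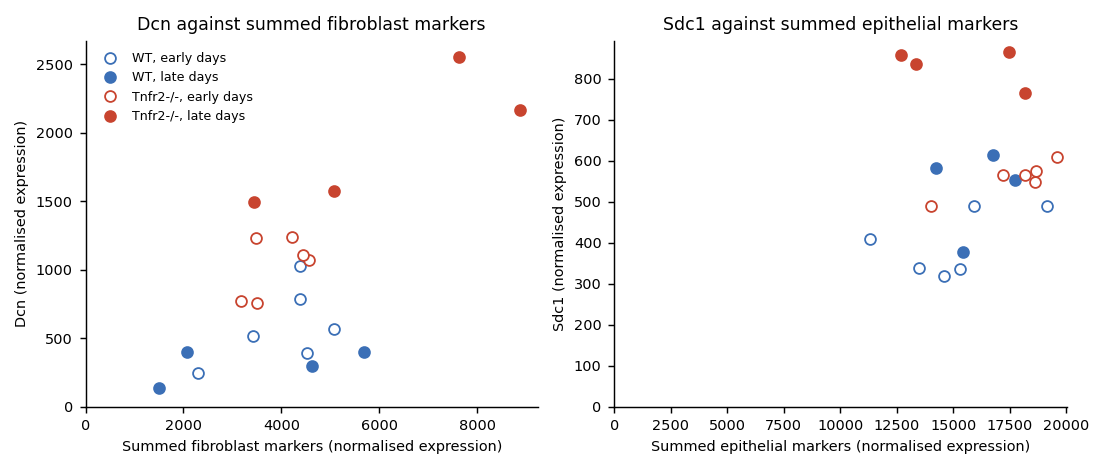
Dcn against the summed fibroblast markers (left) and Sdc1 against the summed epithelial markers (right), all in normalised expression, 1 point per library (WT blue, Tnfr2-/- red; open for early and filled for late days). The late Tnfr2-/- points lie at 1493 to 2551 for Dcn and the late WT points at 135 to 402, with fibroblast sums of 3439 to 8869 and 1496 to 5681 that overlap in part.

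Genes whose values ran most like a member were found by the Pearson r of log2(value + 1) over the 20 libraries among 10647 other genes with a mean of at least 5. Dcn ran most like Grem1 (0.95), a secreted BMP antagonist, Ackr4 (0.95), an atypical chemokine receptor, and Brinp3 (0.94). Prelp ran most like Plagl1 (0.92), Svep1 (0.88) and Eln (0.87), the gene of elastin. Sdc1 ran most like Tspan14 (0.96), Ralb (0.94) and Tmed3 (0.94). Bgn was nearest Enc1 (0.94), Aebp1 (0.93) and Plod1 (0.93), a lysyl hydroxylase of collagen. Hspg2 was nearest Enpp2 (0.92), Crabp1 (0.92) and Gas1 (0.91), Vcan nearest Nsg1 (0.92), Mrgprf (0.90) and Slc25a4 (0.88), and Lum nearest Olfml3 (0.82), Smim3 (0.81) and Matn2 (0.76). For the sum of the 10 genes the nearest was P4ha1 (0.97), a collagen prolyl hydroxylase. The libraries share mice and days, so these values are descriptions.

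Transcript shares were a readout the choice of genes did not use, although kallisto divides shared reads by a model. Dcn had a pair of coding transcripts with the same coding length of 354 codons and different annotated starts, and ENSMUST00000105287 held 77.5% ± 14.4 (SD, n = 10) of the Dcn sum in WT and 75.3% ± 8.36 (SD, n = 10) in Tnfr2-/- libraries. In Sdc1, ENSMUST00000171158 held 67.7% ± 4.74 and 68.2% ± 1.62. For Vcan, the transcript of 2394 codons (ENSMUST00000159910) held 66.3% ± 10.5 and 59.1% ± 14.8, and the longest, of 3354 codons (ENSMUST00000109546), held 18.4% ± 2.49 and 18.4% ± 4.09. The forms of 655 and 1615 codons held 1.15% and 0.0571% of the Vcan sum over all libraries. In each of these the genotypes differed by less than 1 SD between libraries. The transcripts of Hspg2 and Prelp varied widely between libraries, with 16.1% to 100% of the Hspg2 sum in ENSMUST00000030547 and 33.5% to 100% of the Prelp sum in ENSMUST00000048432.

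**Figure D5:**
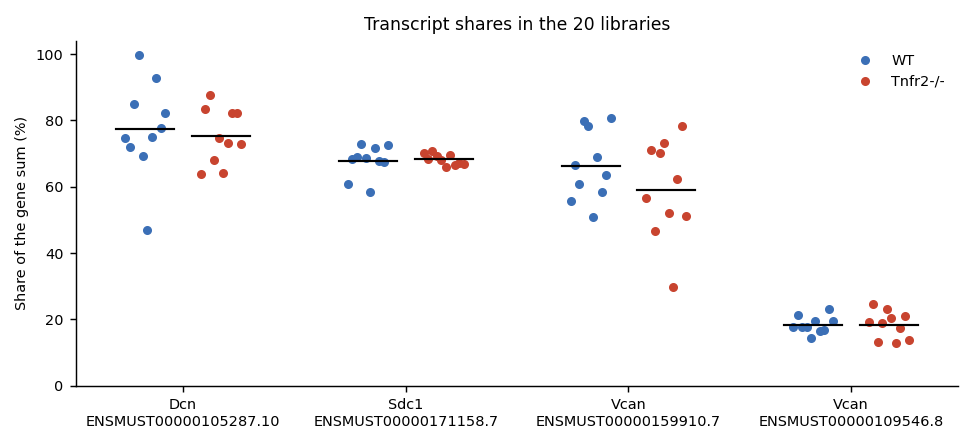
Share of the gene sum, in percent, held by the leading transcripts of Dcn, Sdc1 and Vcan, 1 point per library (10 WT in blue, 10 Tnfr2-/- in red) with black bars at the means. The means of the genotypes lie within 1 SD of each other, at 77.5% and 75.3% for Dcn and 67.7% and 68.2% for Sdc1.

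The rest of the proteoglycan pathway was taken from 8 lists of 110 genes, of which 75 were above the minimum. Over all days, 18 exceeded WT in Tnfr2-/- cultures and 2 were lower, by the same call (26.7% against 7.6% of all genes). When libraries of a mouse were treated as correlated, 14 of the 75 were called, against 545 of all 13539 genes. At late days 20 were higher and none lower (26.7% against 6.45% of all genes). At early days 4 were higher and none lower (5.33% against 1.2%), with 2 called when libraries of a mouse were treated as correlated. In the genotype difference, 0 differed between late and early days by limma, where 0.148% of all genes were called. At an unadjusted p under 0.05 (limma) there were 19 of the 75, against 1583 of all 13539 genes. With mouse means, 0 of the 75 were called in any of the genotype comparisons (20, 24, 12 and 19 at an unadjusted p under 0.05 for all days, late days, early days and late minus early). Of all genes, 7 were called over all days in that fit. Relative to the summed fibroblast markers, 1 of the 75 was called over all days, where 173 of all 13539 genes were called, and 1 at late days.

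Among other cell-surface proteoglycans, 4 of 11 were called higher over all days (7.6% of all genes) and 4 at late days (6.45% of all genes), with a median difference of 0.57 (log2) at late days against -0.05 over all genes. Tgfbr3, the TGF-beta co-receptor betaglycan, was higher by 1.56 ± 0.23 (SE, adjusted p = 0.00172, limma) at late days, from means of 2.53 in WT to 9.87 in Tnfr2-/- cultures. This difference was 0.59 relative to the summed fibroblast markers and 1.63 relative to the summed epithelial markers. Sdc4, a syndecan of focal adhesions, was higher at late days by 0.57 ± 0.08 (adjusted p = 0.00139, limma). The value was -0.39 relative to the summed fibroblast markers and 0.64 relative to the summed epithelial markers. Cspg4, a chondroitin sulphate proteoglycan of pericytes, exceeded WT over all days by 1.15 ± 0.17 (adjusted p = 0.000545, limma), with values of 1.75 and 0.51 at pseudocounts of 0.1 and 5. Sdc4 also rose over the course in WT (0.50) and in Tnfr2-/- cultures (0.74). The other small leucine-rich genes were mostly too low, with 3 of 11 above the minimum, and Omd (osteomodulin) fell by 1.52 (log2) over the WT course, with values of -3.40 and -0.63 at pseudocounts of 0.1 and 5, and a call lost without any 1 of 3 of the 4 mice. Of the other matrix proteoglycans, 4 of 15 were above the minimum and 1 was called over all days, Col15a1, a basement membrane collagen with chondroitin sulphate chains, which was lower by -1.05 ± 0.24 (adjusted p = 0.0127, limma). That call was lost without any 1 of 2 of the 4 mice, and the difference without 1 mouse lay between -1.55 and -0.55.

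Among enzymes that build the sugar chains, 1 of 7 linker enzymes was called at late days, where 6.45% of all genes were called. Pxylp1, the xylose phosphatase, rose over the course in WT (1.41 ± 0.21) and in Tnfr2-/- cultures (0.99 ± 0.21). Of 16 heparan sulphate enzymes, 3 were called higher and 1 lower over all days, where 7.6% of all genes were called. The call of Hs3st1, 1 of the 3, was lost without any 1 of 17 of the 20 libraries and when libraries of a mouse were treated as correlated (adjusted p = 0.096, limma). Sulf1, an extracellular sulphatase that trims heparan sulphate, was higher by 1.34 ± 0.25 (adjusted p = 0.00395, limma), while Hpse, heparanase, was lower by -0.52 ± 0.11 (adjusted p = 0.00863, limma). Ext1, a heparan sulphate polymerase, was higher at late days by 0.92 ± 0.16 (adjusted p = 0.00627, limma). The value was -0.05 relative to the summed fibroblast markers and 0.99 relative to the summed epithelial markers. Of 13 chondroitin and dermatan sulphate enzymes, 2 were called higher over all days (Ust and Chst12), where 7.6% of all genes were called. Neither was called when libraries of a mouse were treated as correlated (adjusted p = 0.0777 and 0.0797, limma). Each was also lost without any 1 of 10 of the 20 libraries. Chst15, a chondroitin sulphotransferase, rose over the course in WT (1.02 ± 0.23) and in Tnfr2-/- cultures (1.62 ± 0.23).

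Has2, a hyaluronan synthase, was higher at late days by 2.00 ± 0.32 (SE, adjusted p = 0.00325, limma), at 6.01 in WT and 25.1 in Tnfr2-/- cultures. It was 1 of 2 hyaluronan genes called of 7, where 6.45% of all genes were called. Of 14 proteases that cut proteoglycans, 8 were called higher and none lower at late days, where 6.45% of all genes were called, with a median of 1.17 (log2). Mmp13, a collagenase, was higher by 2.79 ± 0.34 (adjusted p = 0.000523, limma), Mmp3, stromelysin-1, by 2.40 ± 0.31 (adjusted p = 0.00079, limma) and Mmp7, matrilysin, by 1.64 ± 0.30 (adjusted p = 0.00669, limma). Relative to the summed fibroblast markers these differences were 1.83, 1.43 and 0.68, and that of Has2 was 1.04. Relative to the summed epithelial markers they were 2.86, 2.47 and 1.715, and that of Has2 was 2.07. Mmp3 averaged 1017 in late WT and 4788 in late Tnfr2-/- libraries. Adamts4, an aggrecanase that also cuts versican, rose over the Tnfr2-/- course by 2.15 ± 0.26 (adjusted p = 0.000195, limma). Its WT value of 0.47 was not called, nor was the difference between these courses (1.68). Transcript levels say nothing of protease activity, which was not measured.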

How the data were processed

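Colonoid libraries of WT and Tnfr2-/- mice were sequenced by the study as stranded single-end mRNA-seq. The tools CASAVA, kallisto and sleuth and the build mm10 are named in the submitters' processing notes. The deposited signal is TPM per transcript divided by a library size factor by the authors, and it keeps no read depth. The deposited table also holds 11 columns of the authors' test results, which were not used. Of 113974 lines, 781 repeats were dropped and 199 transcripts had no gene. Values were summed per symbol and analysed as log2(value + 1) for genes with a mean of at least 1, by limma 3.58.1 (trend; R 4.3.3) with Benjamini-Hochberg adjustment over all 13539 genes, and called at an adjusted p under 0.05. Genotype over all days was fitted with day as a factor, the other comparisons as contrasts of 10 group means. The fits were tested on simulated data with independent libraries and no mouse effect, which cannot check how repeats of a mouse affect the calls.

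The members and lists were chosen with earlier results of these data known. The naming rule allowed, per list and comparison, up to 4 called genes of largest difference, and of these, those whose call held without any single library and with the mouse block were named, a choice made after the values were seen. Ust, Chst12 and Hs3st1 were named beside a count although their calls did not hold. Holding without a whole mouse was not asked. The calls of Hpse and Col15a1 over all days were lost without some of the mice. So were those of Tgfbr3, Sdc4, Ext1, Has2, Mmp13 and Mmp7 at late days. The most similar 3 genes per member were also named; some items are not reported here. Libraries of a mouse are paired across days by the animal; the deviations of same-mouse libraries correlated at 0.0998 to 0.307 in WT and -0.0511 to 0.08 in Tnfr2-/-. Alternatives covered blocks, mouse means, pseudocount, filter, scaling, gene sums and omitted libraries or mice. Positions come from GENCODE M21 (GRCm38).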

Additional observations from a re-analysis of the deposited data

Results flagged for a closer look

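The genotype difference of Dcn at late days exceeded that at early days by 1.81 (log2, all 20 libraries), as a contrast fitted by limma. Dcn was picked with these values known, so this is a description. The call was lost without any 1 of 14 of the 20 libraries. Dcn was higher in Tnfr2-/- cultures by 0.93 at early and 2.74 at late days. With mouse means it was not called, nor without Tnfr2-/- mouse 1 or mouse 2, and relative to the summed fibroblast markers it was 0.84 and not called. In 28 groups of 4 or 6 libraries (7 genes in each genotype at early and late days), 0 held a library beyond Dixon's limit, where chance gives about 1 in 20 groups.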

How the results depend on the processing

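Depth limits are unknown, since the signal keeps no reads, and genotype rests on 2 mice against 2. The counts below are of the 7 genes, then of the 75 list genes, in the order all days, late days, early days, late minus early, WT course and Tnfr2-/- course (4, 4, 2, 1, 2 and 3, and 20, 20, 4, 0, 17 and 26 as reported). With mouse means 0, 0, 0 and 0 genes were called in the first 4, and 0, 0, 0, 9 and 17 list genes for all days, late days, early days and the 2 courses. The replicate number as a block, which joins different mice across genotypes, gave 5, 5, 3, 1, 5 and 4 of the 7 (Bgn gained over all days, at late days and in the WT course, Hspg2 at early days and in the WT course, Sdc1 in the WT course and Prelp in the Tnfr2-/- course) and 22, 29, 5, 4, 22 and 29 list genes. The mouse as a correlated block gave 2 list genes at early days and 1 for late minus early, and changed no other call of the 7 genes than Sdc1 in the WT course. No filter and rescaling to equal sums each gave 2 list genes at early days. Relative to the fibroblast markers, chosen after seeing the data, the 7 genes gave 2, 2, 1, 0, 0 and 0 and the lists 1, 1, 0, 1 and 3 (late minus early apart). Relative to the epithelial markers, likewise chosen, the lists gave 11, 2, 7 and 10 for all days, early days, late minus early and the WT course. Leaving out 1 library gave 4 to 5, 2 to 5, 1 to 3, 0 to 1, 2 to 3 and 2 to 4 of the 7 genes, and 14 to 22, 8 to 28, 0 to 5, 0 to 3, 8 to 21 and 14 to 27 list genes. Leaving out 1 mouse gave 3 to 5, 1 to 7, 0 to 3, 0 to 2, 0 to 4 and 0 to 4, and 4 to 26, 0 to 32, 0 to 11, 0 to 1, 6 to 18 and 0 to 29. Called differences that turned sign did so only relative to the fibroblast markers: Sdc1 at late days (-0.297) and over the Tnfr2-/- course (-0.0266); Sulf2 (-0.0323) and Hs3st1 (-0.0817) over all days; Sdc4 (-0.39), Xylt1 (-0.0117), Ext1 (-0.049), Hs3st1 (-0.50) and Cemip2 (-0.51) at late days; and over the Tnfr2-/- course Gpc4 (-0.0553), Fam20b (-0.27), Ndst1 (-0.12), Hs3st1 (-0.15) and Cemip2 (-0.0826). The cause was not tested. Rescaling to equal sums shifted single libraries by -0.151 to 0.152 (log2). All 72 alternatives for levels and transcript shares moved them by less than 1 SD. For the shares, leaving out 1 of 2 mice can hardly move the mean further than that, so nothing is read from it. ENSMUST00000159285 of Vcan held 5.897% in Tnfr2-/- mouse 1 and 20.55% in Tnfr2-/- mouse 2.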
